A study of Homo sapiens with 6 samples.

Results

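The MMP, ADAM, ADAMTS and TIMP families comprise the secreted and membrane-bound zinc proteases that cut matrix and cell-surface proteins, with the inhibitors that hold the MMPs in check. Their members were taken as the genes named MMP, ADAM, ADAMTS or TIMP followed by a number and at most 1 letter, with a protein-coding transcript in the deposited annotation. This gave 62 of the 42307 listed genes: 21 MMP, 18 ADAM, 19 ADAMTS and 4 TIMP genes. RNA sequencing measured them in U251 cells, a long-used line from a human glioblastoma that is labelled wild type, 3 days after transfection with 1 ug per well of either a negative control plasmid (NC) or a STING overexpression plasmid (STING-OE). STING is an adaptor in the endoplasmic reticulum through which DNA in the cytosol triggers interferon genes. Each group had 3 libraries. The question was how the STING plasmid changed the expression of these genes. The labels do not say that the libraries came from separate cultures, so p-values measure the spread among these samples alone, and that spread may be technical. In RNA from whole cultures, fewer expressing cells and less RNA per cell cannot be told apart.

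These proteases share a catalytic zinc ion and are made as inactive precursors. MMPs cleave collagens, gelatin, fibronectin and other matrix proteins, and TIMPs bind their active site. The membrane-bound MMP14 uses TIMP2 as a bridge to capture and activate pro-MMP2, a gelatinase that glioma cells use to enter brain tissue. ADAMs sit in the cell membrane and release the outer domains of growth factors, receptors and adhesion proteins, whereas ADAMTS proteases are secreted and cut proteoglycans, procollagens and microfibril proteins.

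The promoters of 4 of the 5 members that changed are shown first, since they are the regulatory sequence nearest to the results. They come from RefSeq (GRCh38.p14), which matched 37 of the 62 members, and cover 250 bases before to 50 bases after the transcript start, 5′ to 3′ on the gene's own strand. MMP2 changed too and had no entry. ADAMTS10 had 2 entries, of which the one nearest to the deposited start, 20 bases away, is printed. Capitals mark matches on either strand to the AP-1 element TGAGTCA, the cyclic AMP response element TGACGTCA, the GC box GGGCGG and the E-box CACGTG. The motifs were chosen with the results of these data known.
ADAMTS6, chr5:65481871-65482170, minus strand: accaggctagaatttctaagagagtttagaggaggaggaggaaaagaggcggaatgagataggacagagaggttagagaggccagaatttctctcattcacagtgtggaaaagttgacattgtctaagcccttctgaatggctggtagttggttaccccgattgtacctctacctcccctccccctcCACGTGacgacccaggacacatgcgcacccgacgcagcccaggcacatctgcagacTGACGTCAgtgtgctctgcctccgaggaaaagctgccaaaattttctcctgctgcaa
MMP14, chr14:22836335-22836634, plus strand: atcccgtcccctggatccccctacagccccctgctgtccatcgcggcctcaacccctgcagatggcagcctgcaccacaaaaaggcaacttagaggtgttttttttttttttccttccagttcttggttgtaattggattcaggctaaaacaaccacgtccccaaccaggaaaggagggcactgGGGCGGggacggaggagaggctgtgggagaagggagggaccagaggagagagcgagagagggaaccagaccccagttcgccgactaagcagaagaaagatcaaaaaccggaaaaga
ADAM19, chr5:157575726-157576025, minus strand: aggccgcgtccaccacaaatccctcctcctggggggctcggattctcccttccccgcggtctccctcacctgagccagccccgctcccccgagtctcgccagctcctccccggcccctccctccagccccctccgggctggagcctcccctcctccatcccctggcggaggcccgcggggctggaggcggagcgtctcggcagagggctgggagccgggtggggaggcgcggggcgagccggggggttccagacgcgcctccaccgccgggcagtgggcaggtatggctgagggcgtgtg
ADAMTS10, chr19:8610666-8610965, minus strand: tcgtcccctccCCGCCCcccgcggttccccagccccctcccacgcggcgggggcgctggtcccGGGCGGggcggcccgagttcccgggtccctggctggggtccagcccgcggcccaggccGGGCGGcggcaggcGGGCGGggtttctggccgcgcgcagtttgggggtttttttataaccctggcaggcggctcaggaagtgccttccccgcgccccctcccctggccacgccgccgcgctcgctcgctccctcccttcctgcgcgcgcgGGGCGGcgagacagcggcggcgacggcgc

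ADAMTS6, the member that rose, held a cyclic AMP response element that begins 7 bases before the start and an E-box that begins 63 bases before it. Of all 35116 promoters of this length 1.85% held the first and 7.26% the second. Of the members that fell, MMP14 held 1 GC box, ADAMTS10 held 5 (counted without overlap between matches) and ADAM19 held 0, and 45.0% of all promoters held at least 1. The other ADAMTS10 entry, chr19:8592167-8592466, held 0 GC boxes and had a GC content of 63.7%. None of the 4 promoters shown held the AP-1 element, which was in 4.95% of all promoters. GC content was 52.0% in the ADAMTS6 promoter, 55.0% in that of MMP14, 75.7% in that of ADAM19 and 79.3% in that of ADAMTS10, against a median of 58.7%. A match describes the letters in this window only.

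Depth and the plasmid gene were checked first. Counts summed to between 71498790 and 76566375 per library, and 3 counts corresponded to 0.0388 to 0.0423 CPM (counts scaled by library size and TMM factor), a floor that covers counting error only. STING1, the plasmid gene, stood at 34.8 ± 3.15 CPM in NC and at 52.7 ± 4.79 CPM in STING-OE (SD, n = 3), and rose 1.51-fold by edgeR (adjusted p = 0.00221). The glioma markers VIM, CD44, NES, SOX2, SOX9 and EGFR were at 17.1 FPKM or more in each library. Of 14 listed astrocyte and glioma markers 13 had an entry (AQP4 had none), and 9 of these were at 1 FPKM or more throughout. GFAP, an astrocyte filament, was at 2.82 to 3.53 FPKM in NC and fell with the STING plasmid to 1.48 to 2.10 FPKM (adjusted p = 0.033 by edgeR). S100B, OLIG2, CHI3L1 and ALDH1L1 stayed at or below 0.16 FPKM. Of 20 listed markers of other cell types 19 had an entry. Among these SYT1 and CD68 were at 1 FPKM or more in every library, and 0 were without a count in all libraries. HBA1, a globin chain, was at 135.74 and 127.24 FPKM in NC libraries 2 and 3, at 14.2 and 21.7 in STING-OE libraries 2 and 3, and at 0.12 and 0.07 in library 1 of each group. The summed level of these 19 markers was 16.97 to 151.37 FPKM in NC and 20.73 to 42.35 in STING-OE, and its part in the results below was not tested.

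U251 cells expressed a small set of these proteases strongly. In the NC libraries 10 members had a mean of at least 10 FPKM, 13 lay between 1 and 10, and 39 were under 1. FPKM values are per length of the gene model and were compared between genes as deposited. The SDs below cover the spread between libraries and not the choice of that length, so the order of genes rests on the deposited values. TIMP2 led at 52.0 ± 1.77 FPKM (SD, n = 3), followed by ADAM9, a broad sheddase, at 51.6 ± 1.22 FPKM. Their difference lay within the spread between libraries. MMP14 at 35.7 ± 2.27 FPKM and TIMP1, an inhibitor of most secreted MMPs, at 35.4 ± 1.01 FPKM did not differ beyond their spread either. ADAM15 at 20.3 ± 0.284 FPKM, ADAM19 at 18.1 ± 0.105, ADAM12 at 14.96 ± 0.581 and MMP2 at 12.2 ± 0.466 came next, each separated from the next by more than their SDs. ADAM10 and ADAM17, the sheddases of Notch and of TNF, were at 10.8 ± 0.211 and 10.1 ± 0.325 FPKM. The highest ADAMTS gene was ADAMTS1 at 3.84 ± 0.355 FPKM, then ADAMTS4 at 2.81 ± 0.126 and ADAMTS12 at 2.54 ± 0.225, of which the last 2 lay within their spread.

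**Figure D1:**
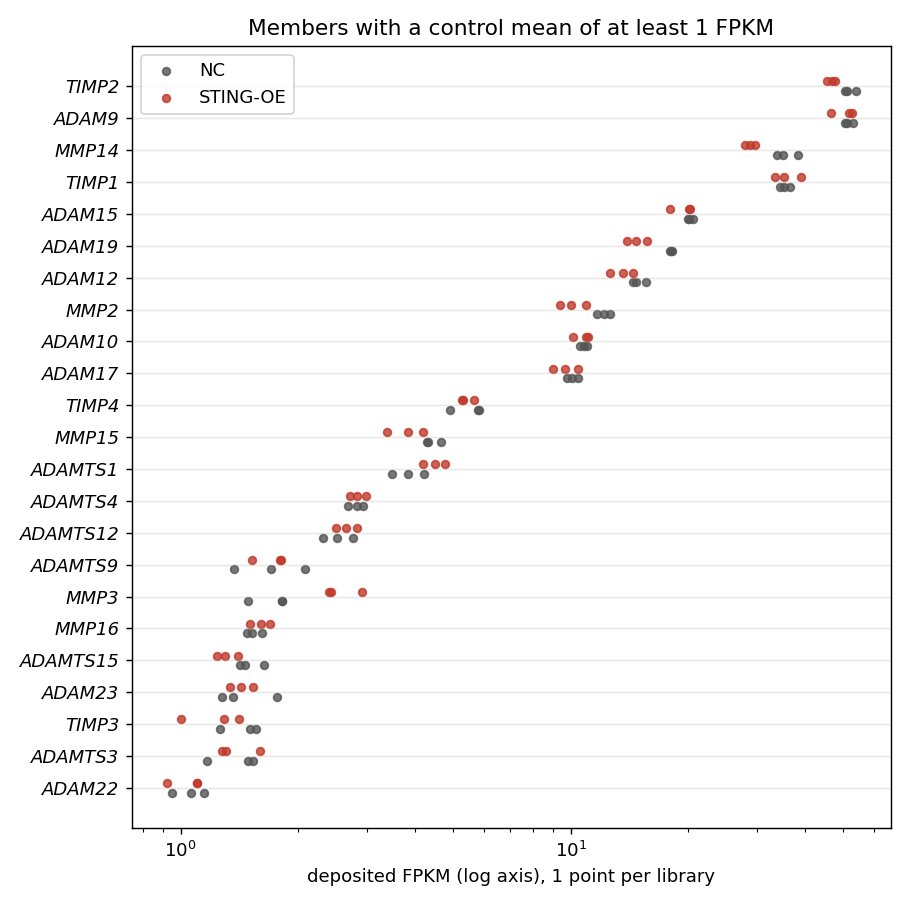
Deposited FPKM (log axis) of the 23 members with a control mean of at least 1 FPKM, 1 point per library, NC in grey and STING-OE in red. TIMP2, ADAM9, MMP14 and TIMP1 stand at the top. For MMP14, ADAM19, MMP2, TIMP2, ADAM12, MMP15 and ADAMTS15 the red points lie left of all grey ones, and for MMP3 right of them.

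Other members were scarcely transcribed. MMP9, the second gelatinase, was counted 31, 31 and 16 times in NC and 0, 22 and 24 times in STING-OE, and had a log2 fold change of −0.83 with a standard error of 0.876. The filter on low counts left out 11 members (ADAM7, ADAM29, ADAM30, ADAM33, ADAMTS2, ADAMTS8, ADAMTS18, ADAMTS19, ADAMTS20, MMP8 and MMP20), whose largest count in any library was 26. ADAM33 and ADAMTS8 had 0 counts in all 6 libraries, which allows up to 3 counts in each.

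Of the 51 members tested 1 rose, 4 fell and 46 did not pass. Those calls were 1.96% and 7.84% of the tested members, against 0.604% higher and 0.89% lower over all 21679 genes tested. A call needed a p under 0.05 by edgeR's quasi-likelihood test after Benjamini-Hochberg adjustment over all genes. Estimates were negative for 37 of the 51 members, and for 10794 of all 21679 genes tested. Among the members 32 to 38 were negative under the other scalings and 31 with limma on FPKM. Without 1 library 30 to 37 of the 51 or 52 tested members were negative. The median log2 fold change of the members, STING-OE over NC, was −0.08 against 0.00103 over all genes. An unadjusted p under 0.05 was reached by 5 members on the higher side and 10 on the lower side, or 9.80% and 19.6%, against 7.17% and 7.2% over all genes. The CPM values of the groups did not overlap for 5 higher members (9.80%, with 10.1% over all genes) and for 12 lower members (23.5%, with 9.73% over all genes). The higher share lay at the background and the lower share above it. The set was chosen with the changes of ADAMTS6, ADAMTS10 and MMP14 known, so its shares are not independent of that choice.

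**Figure D2:**
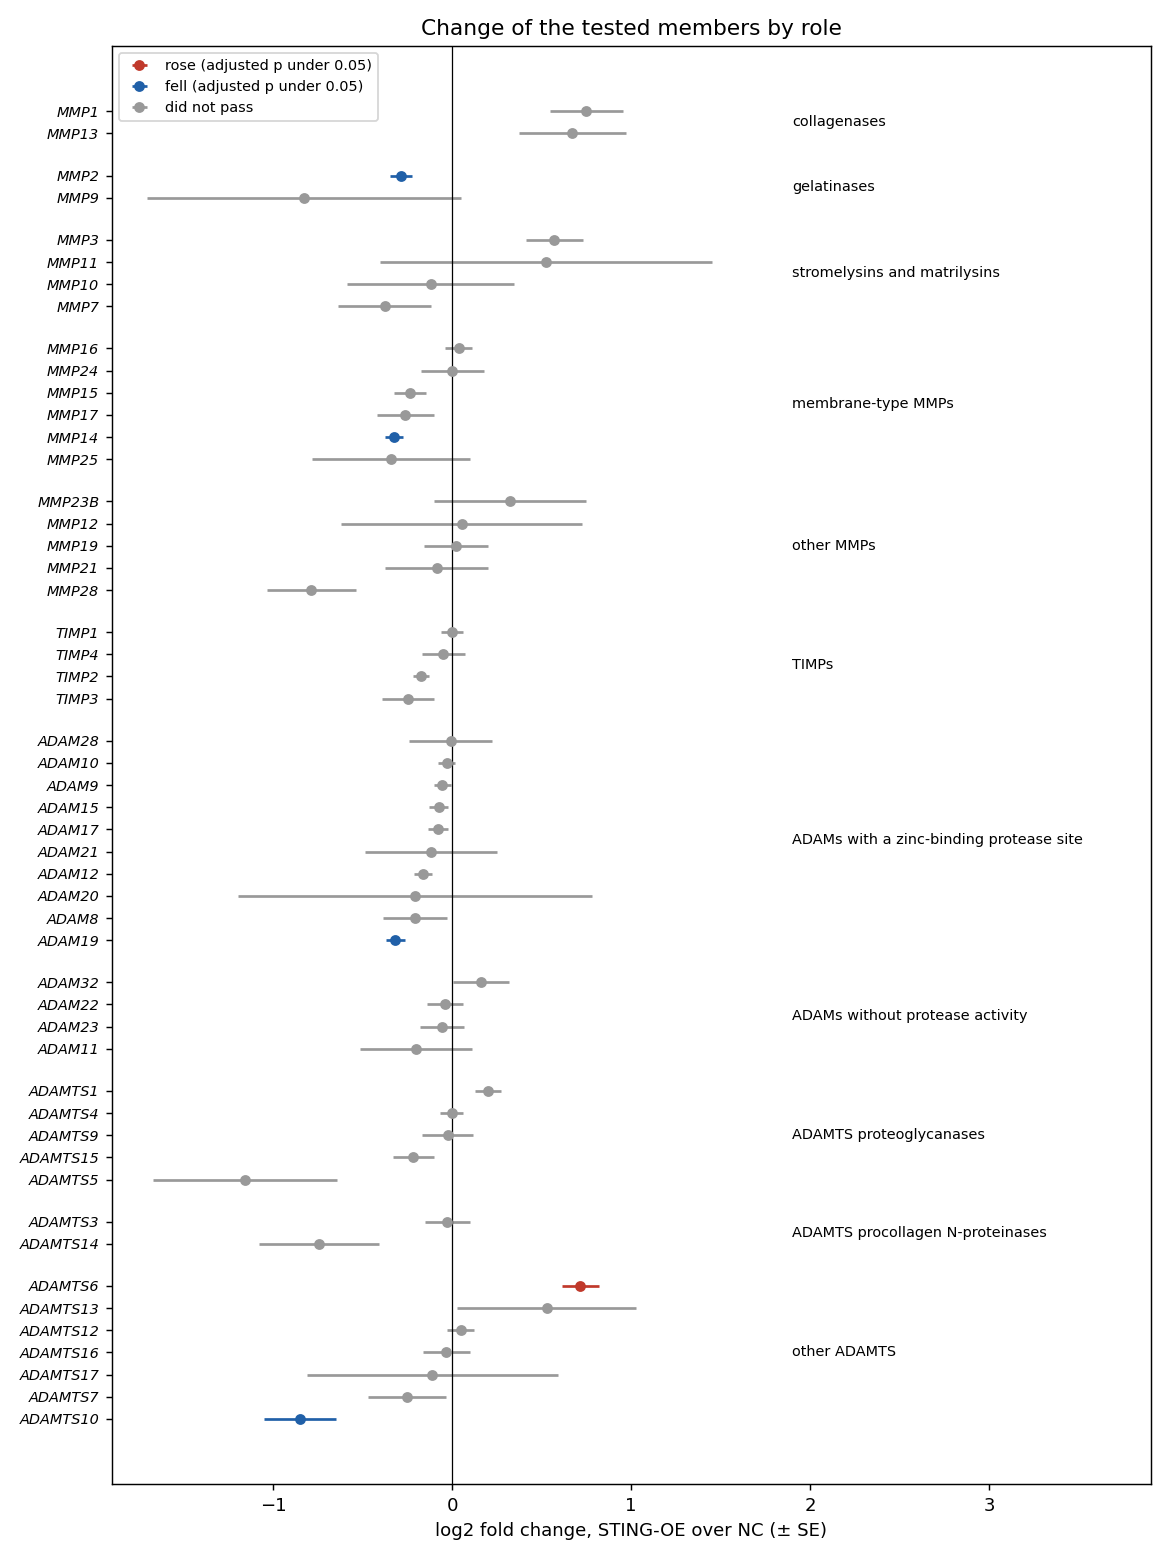
Log2 fold change (STING-OE over NC) with its standard error for the 51 tested members, grouped by role. ADAMTS6 (red) is the member that rose, and MMP14, MMP2, ADAM19 and ADAMTS10 (blue) are the 4 that fell.

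MMP14 and MMP2, the protease and the gelatinase it activates, both fell with the STING plasmid. MMP14 (ENSG00000157227, chromosome 14, 22836560 to 22849027, plus strand) was at 183, 171 and 165 CPM in NC libraries 1, 2 and 3 and at 140, 133 and 143 CPM in the STING-OE libraries. All STING-OE values lay below all NC values. Its level fell to 0.798 of the control level (log2 fold change −0.33, SE 0.0502, adjusted p = 0.00469 by edgeR). MMP2 (ENSG00000087245, chromosome 16, 55389700 to 55506239, plus strand) was at 63.8, 63.0 and 60.3 CPM in NC and at 55.9, 50.01 and 47.6 CPM in STING-OE. Again the groups did not overlap, and the closest libraries lay 1.08-fold apart. The log2 fold change of MMP2 was −0.29 (SE 0.0614, adjusted p = 0.0307 by edgeR).

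TIMP2, the third partner of this complex, was lower but did not pass. It was at 327, 313 and 317 CPM in NC and at 291, 272 and 284 CPM in STING-OE, again without overlap. The log2 fold change was −0.18 (SE 0.0439, adjusted p = 0.0583 by edgeR). Under the alternatives that adjusted p ranged from 0.00152 to 0.266 and was under 0.05 in 5 of 17. Without NC library 1 MMP14 lost its call (adjusted p = 0.0636 by edgeR). MMP2 lost it without NC library 1, 2 or 3 (0.145, 0.145 and 0.0772) and without STING-OE library 2 or 3 (0.144 and 0.125, edgeR adjusted p).

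The values of the other 3 TIMPs overlapped between the groups. TIMP1 was at 55.8 ± 1.75 CPM in NC and 55.8 ± 4.71 CPM in STING-OE (SD, n = 3), and the sign of its change turned with the scaling. TIMP3, which binds to the matrix and also inhibits ADAM17 and aggrecanases, was at 7.24 ± 0.749 and 6.10 ± 1.01 CPM (log2 fold change −0.25, SE 0.144, adjusted p = 0.484 by edgeR). TIMP4 was at 7.18 ± 0.643 and 6.94 ± 0.196 CPM. Summed over all 21 MMP genes the deposited FPKM was 58.8 to 64.1 in the NC libraries and 52.0 to 54.2 in the STING-OE libraries, and MMP14 alone made 56.9% to 59.6% and 53.2% to 55.8% of it. Summed TIMP over summed MMP came to 1.51 to 1.58 in NC and 1.62 to 1.72 in STING-OE. These sums describe the libraries and follow mainly the most abundant members.

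Among the 5 other membrane-type MMPs none passed, by edgeR. MMP15 was at 21.2, 19.9 and 19.96 CPM in NC and at 19.2, 15.2 and 17.5 CPM in STING-OE, without overlap (log2 fold change −0.23, SE 0.0895, adjusted p = 0.221 by edgeR). MMP16, MMP17, MMP24 and MMP25 had log2 fold changes of 0.04, −0.26, 0.00164 and −0.34. Within this group of 6, MMP14 and MMP15 had an unadjusted edgeR p under 0.05. MMP28, a secreted MMP also called epilysin, was at 2.45 ± 0.276 CPM in NC and 1.42 ± 0.414 CPM in STING-OE (adjusted p = 0.131 by edgeR). Its model overlaps TAF15 on the opposite strand, which had a mean count of 17770 against 143.8 for MMP28. The strand setting is not given, so the MMP28 value is uncertain. The sum of both models is almost all TAF15 and cannot show whether MMP28 changed. Values of other members whose models overlap a gene on the opposite strand are uncertain too.

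**Figure D3:**
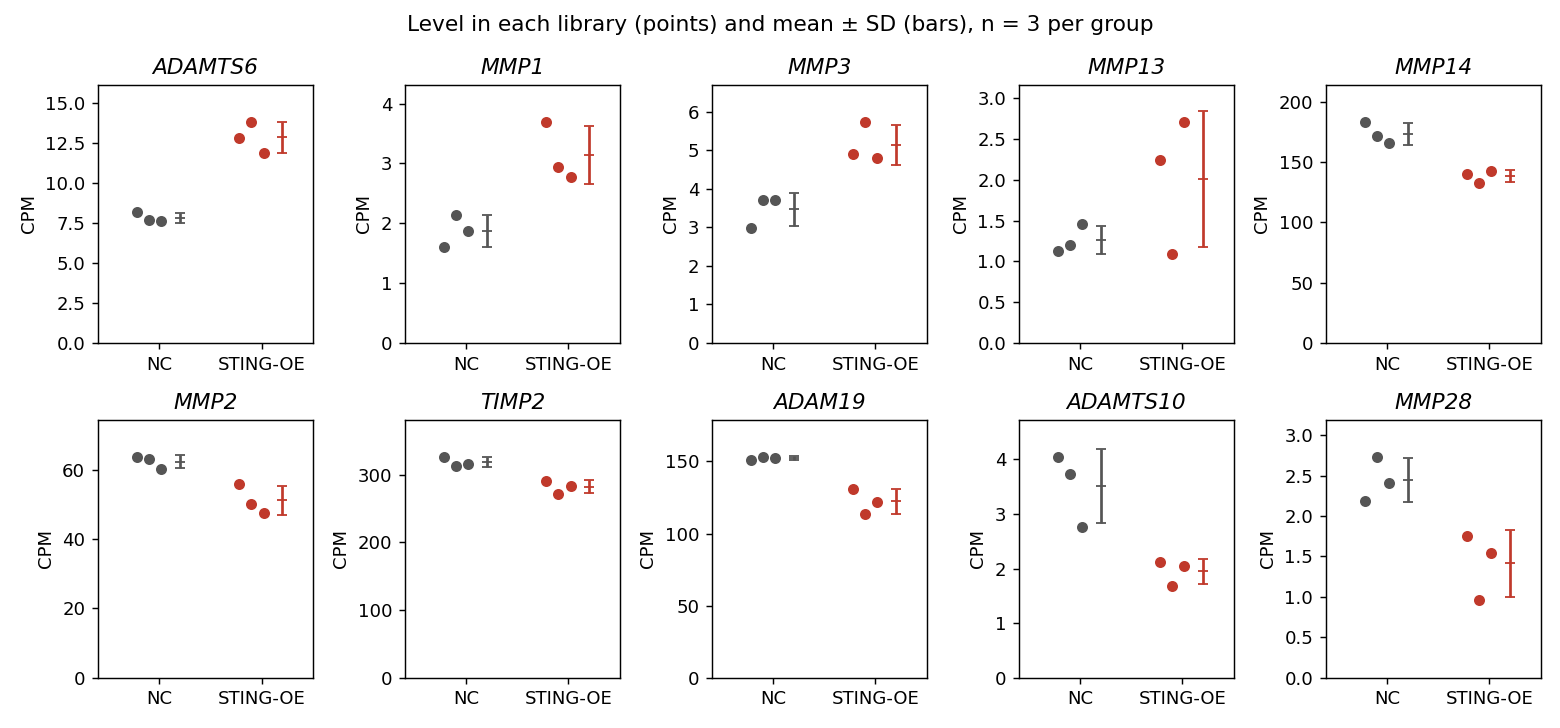
CPM in each library (points) with mean ± SD (bars) for 10 members, NC in grey and STING-OE in red, with each vertical axis starting at 0. The 3 STING-OE points lie above all NC points for ADAMTS6, MMP1 and MMP3 and below them for MMP14, MMP2, TIMP2, ADAM19, ADAMTS10 and MMP28, whereas MMP13 overlaps.

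Against this direction, the secreted collagenase MMP1 and the stromelysin MMP3 had higher values with the STING plasmid, short of the threshold. MMP1, which starts the cleavage of fibrillar collagen (ENSG00000196611, chromosome 11, 102789919 to 102798160), was at 1.605, 2.13 and 1.87 CPM in NC and at 3.70, 2.95 and 2.78 CPM in STING-OE. MMP3, which cuts proteoglycans and activates other pro-MMPs (ENSG00000149968, chromosome 11, 102835801 to 102843609), was at 2.98, 3.71 and 3.71 CPM in NC and at 4.91, 5.74 and 4.79 CPM in STING-OE. For both genes every STING-OE library lay above every NC library. The log2 fold change of MMP1 was 0.75 (SE 0.203, adjusted p = 0.0804 by edgeR) and that of MMP3 was 0.57 (SE 0.159, adjusted p = 0.0896 by edgeR).

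The call of these 2 genes depended on the test. DESeq2 called both higher, at adjusted p of 0.0221 for MMP1 and 0.0236 for MMP3, where it called 2.99% of all genes higher, and so did edgeR with a filter at 1 CPM (0.0426 and 0.0433, where it called 1.83% of all genes higher). Over all 17 alternatives the adjusted p ranged from 0.0221 to 0.274 for MMP1 and from 0.0236 to 0.335 for MMP3, and the estimates stayed positive in each, from 0.62 to 0.85 and from 0.47 to 0.62. MMP13, another collagenase gene, was at 1.13, 1.20 and 1.46 CPM in NC and at 2.24, 1.09 and 2.71 CPM in STING-OE. STING-OE library 2 lay below all NC libraries, and the edgeR adjusted p was 0.31.

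MMP1, MMP3 and MMP13 belong to a cluster of MMP genes on the minus strand of chromosome 11, where 8 members lay between 102520508 and 102955732, a span of 435 kb. In the order of their coordinates MMP7 had a log2 fold change of −0.38 (SE 0.260), MMP20 and MMP8 were too low to be tested, and MMP10 had one of −0.12 (SE 0.467). MMP1 and MMP3 followed with 0.75 and 0.57, MMP12 with 0.05 (SE 0.674), and MMP13 closed the cluster with 0.67 (SE 0.299). Of the 8 genes 0 passed the edgeR test, with 3 unadjusted p under 0.05. DESeq2 called MMP1 and MMP3 and gave MMP13 no adjusted p. The cluster was low in these cells: MMP3 was its most abundant gene at 1.71 FPKM in NC and 2.58 in STING-OE, and MMP1 followed at 0.867 and 1.48 FPKM.

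ADAM19 was the ADAM that fell, among 14 tested. ADAM19 encodes a membrane protease that sheds neuregulin and other EGF-family ligands (ENSG00000135074, chromosome 5, 157395534 to 157575775, minus strand). It was at 151, 153 and 152 CPM in NC and at 131, 114 and 122 CPM in STING-OE. The NC libraries lay close together and the STING-OE libraries were all lower. The log2 fold change was −0.32 (SE 0.0521, adjusted p = 0.00668 by edgeR). Its model overlaps CYFIP2 on the opposite strand (mean count 1577), and the sum with all overlapping models still separated the groups, at 175 ± 3.54 and 143 ± 9.09 CPM (SD, n = 3). Without NC library 1 or 2 the edgeR adjusted p was 0.0619 and 0.0538.

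The other abundant ADAMs showed smaller values. ADAM12, a membrane and secreted protease that cuts IGF-binding proteins, was at 166, 157 and 160 CPM in NC and at 135, 143 and 153 CPM in STING-OE (log2 fold change −0.16, SE 0.0513, adjusted p = 0.134 by edgeR). ADAM12 passed in DESeq2 (adjusted p = 0.0339, in a range of 0.0339 to 0.398 over its alternatives), where 4.32% of all genes were called lower. ADAM10 was at 188 ± 4.15 CPM in NC and 184 ± 7.24 CPM in STING-OE, and ADAM17 at 118 ± 2.73 and 112 ± 8.19 CPM (SD, n = 3), with overlapping groups. The log2 fold changes of ADAM9 and ADAM15 were −0.06 (SE 0.0472) and −0.08 (SE 0.0535). All 10 tested ADAMs with a zinc-binding protease site had a negative estimate, between −0.32 and −0.01 with a median of −0.10, but ADAM28 turned positive with total-count scaling and with limma on FPKM. Without 1 library 8 to 10 of the 10 were negative, the exceptions being ADAM20, ADAM21 and ADAM28, which are low, and without the filter ADAM30 was positive. Of 4 tested ADAMs without protease activity 1 estimate was positive, that of ADAM32 at 0.16.

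ADAMTS6 rose and ADAMTS10 fell, and these 2 are close paralogs. ADAMTS6 (ENSG00000049192, chromosome 5, 65148738 to 65481920, minus strand) was at 8.15, 7.70 and 7.58 CPM in NC and at 12.8, 13.8 and 11.9 CPM in STING-OE. The lowest STING-OE library lay 1.46-fold above the highest NC library. The rise was 1.64-fold, a log2 fold change of 0.72 (SE 0.103, adjusted p = 0.00296 by edgeR). ADAMTS6 passed without each of the 6 libraries in turn, with edgeR adjusted p of 0.00691 to 0.0243, and in 16 of 17 alternatives in all.

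ADAMTS10, which binds fibrillin-1 and is mutated in Weill-Marchesani syndrome (ENSG00000142303, chromosome 19, 8580240 to 8610735, minus strand), was at 4.05, 3.73 and 2.75 CPM in NC and at 2.12, 1.68 and 2.04 CPM in STING-OE. NC library 3 was the lowest control and still lay 1.30-fold above the highest STING-OE library. The level fell to 0.555 of the control level, a log2 fold change of −0.85 (SE 0.203, adjusted p = 0.049 by edgeR). This call was lost without any 1 of the 6 libraries, with edgeR adjusted p of 0.220, 0.199 and 0.0577 without NC library 1, 2 or 3 and of 0.0614, 0.209 and 0.113 without STING-OE library 1, 2 or 3.

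Of the 5 tested proteoglycanases of the ADAMTS family 0 passed in edgeR, with 2 unadjusted edgeR p under 0.05. DESeq2 called none of them and gave ADAMTS5 no adjusted p. ADAMTS1 was at 31.9, 27.0 and 29.6 CPM in NC and at 32.0, 33.7 and 36.1 CPM in STING-OE, with the closest libraries nearly level (log2 fold change 0.20, SE 0.0725, adjusted p = 0.193 by edgeR). ADAMTS5, the aggrecanase gene next to ADAMTS1 on chromosome 21, was low, with counts of 32, 28 and 30 in NC and of 15, 11 and 16 in STING-OE. The STING-OE counts were all lower, but the log2 fold change of −1.16 had a standard error of 0.513 (adjusted p = 0.307 by edgeR). ADAMTS9, which cuts versican, and ADAMTS15 had log2 fold changes of −0.03 and −0.22. ADAMTS4, another aggrecanase, was at 31.7 ± 1.16 and 31.6 ± 1.78 CPM (SD, n = 3). Of the procollagen N-proteinases ADAMTS14 was at 1.08 ± 0.189 and 0.644 ± 0.248 CPM (adjusted p = 0.319 by edgeR), ADAMTS3 had a log2 fold change of −0.03, and ADAMTS2 was too low to be tested. ADAMTS12, which cuts cartilage oligomeric matrix protein, was at 26.6 ± 2.09 and 27.4 ± 1.38 CPM.

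Base composition moved with the direction of the calls. The longest transcript of ADAMTS6 had a GC content of 42.5%, whereas those of ADAM19, MMP2, MMP14 and ADAMTS10 had 53.7%, 56.5%, 58.9% and 64.9%, against a median of 47.9% over all tested genes. Over all genes the median was 44.3% for those that rose and 56.3% for those that fell. The trend of a library's deviation with GC content, on the log2 scale per 10% of GC, was 0.0157, 0.0414 and 0.0119 in NC libraries 1, 2 and 3 and 0.0278, −0.0630 and −0.0338 in STING-OE libraries 1, 2 and 3. With each library's trend on GC content and length removed, ADAMTS6, ADAM19 and MMP14 kept their calls (edgeR adjusted p of 0.00561, 0.0077 and 0.0155, with log2 fold changes of 0.68, −0.28 and −0.26). MMP2 and ADAMTS10 did not (adjusted p of 0.0515 and 0.066 by edgeR), with log2 fold changes of −0.23 and −0.79 after the correction against −0.29 and −0.85 before it. The 5 members with an unadjusted edgeR p under 0.05 on the higher side had from 38.9% (MMP13) to 48.6% (ADAMTS1), with MMP1 and MMP3 at 43.4% and 44.8%. Of the 10 such members on the lower side, ADAMTS5, low in counts, had 40.8% and ADAM12 had 47.0%. The rest had from 53.7% (TIMP2) to 66.0% (MMP15). The part of base composition in the calls was otherwise not tested.

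**Figure D4:**
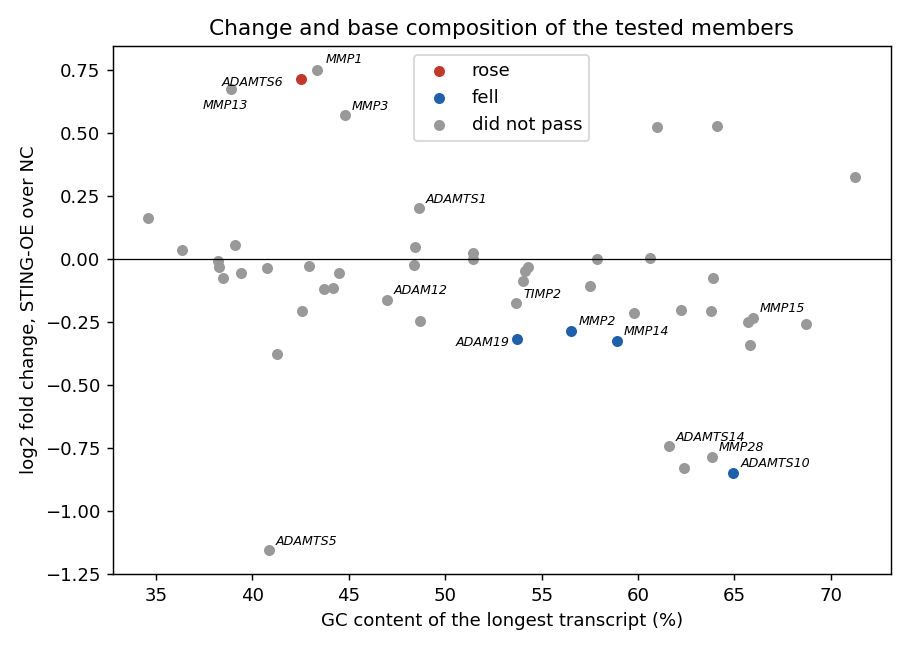
Log2 fold change (STING-OE over NC) of the 51 tested members against the GC content of their longest transcript. The member that rose has a GC content of 42.5%, and the 4 that fell lie between 53.7% and 64.9%.

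The wider pathway was described with 78 related genes, of which 68 were tested: 0 rose, 5 fell (7.35%, with 0.89% over all genes) and 63 did not pass. At an unadjusted p under 0.05, edgeR had 1 on the higher and 17 on the lower side (7.17% and 7.2% over all genes). DESeq2 gave an adjusted p to 55 of the 68 and called 1 higher and 11 lower (2.99% and 4.32% of all genes with one). The median log2 fold change of the 68 was −0.06. FURIN, the convertase that removes the propeptide of MMP14 and of many ADAMs, was at 130, 135 and 135 CPM in NC and at 118, 115 and 117 CPM in STING-OE. The groups did not overlap (log2 fold change −0.19, SE 0.0444, adjusted p = 0.0441 by edgeR). BSG, the MMP inducer also called EMMPRIN, had a log2 fold change of −0.17 and did not pass (adjusted p = 0.0792 by edgeR).

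The remaining falls were spread over partners and substrates. TSPAN15, a tetraspanin that steers ADAM10 to its substrates, had 53.8 ± 2.26 CPM in NC and fell to 44.6 ± 2.85 CPM (SD, n = 3), with an adjusted p of 0.0374 by edgeR. BMP1, the astacin protease that cuts the C-propeptide of procollagens, fell from 89.5 ± 5.06 CPM to 74.7 ± 5.77 CPM (adjusted p = 0.044 by edgeR). VCAN, the versican core protein cut by ADAMTS proteases, fell from 234 ± 9.53 CPM to 203 ± 7.96 CPM (adjusted p = 0.0409 by edgeR). APP, which ADAM10 sheds, fell from 685 ± 18.5 CPM to 601 ± 27.8 CPM (adjusted p = 0.0475 by edgeR). Among 5 tested ADAMTS-like genes and papilin 0 passed in edgeR, and PAPLN had the smallest p (log2 fold change −0.46, SE 0.197, adjusted p = 0.287 by edgeR, unadjusted p = 0.0322). With the GC content and length correction APP and VCAN kept their calls, and FURIN, TSPAN15 and BMP1 did not (edgeR adjusted p of 0.153, 0.0936 and 0.0591). Their log2 fold changes were −0.12, −0.21 and −0.19 after it, against −0.19, −0.27 and −0.26 before. Without NC library 1, 2 or 3 or STING-OE library 2 the number of related genes that fell was 0 in each case, without STING-OE library 3 it was 1 (APP), and without STING-OE library 1 it was 10.

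Leaving out a library changed the number of calls among the members and among all genes. Without NC library 1, 2 or 3, 1 member rose in each case and 0, 1 and 2 fell, where 0.15%, 0.151% and 0.182% of all genes were called higher and 0.115%, 0.115% and 0.279% lower by edgeR. Without STING-OE library 1, 2 or 3, 1 member rose in each case and 4, 2 and 2 fell, where 1.15%, 0.212% and 0.275% of all genes were called higher and 2.12%, 0.208% and 0.448% lower. The member that rose was ADAMTS6 in all 6 cases. Without STING-OE library 1 the lower members were MMP14, MMP2, ADAM19 and TIMP2.

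Other tests and scalings gave from 0 to 3 higher and from 0 to 6 lower members. DESeq2 gave an adjusted p to 35 of the 51 members. It called 3 higher and 6 lower, against 2.99% and 4.32% of all genes with an adjusted p, and added TIMP2 and ADAM12 to the 4 members that fell. The filter at 1 CPM kept 39 members and gave 3 and 5, against 1.83% and 2.75% of all genes it kept. Scaling to total counts gave 1 and 4 (1.13% and 0.637%), limma-voom 1 and 2 (0.268% and 0.364%), and the GC content and length correction 1 and 2 (0.623% and 0.789%). In the last of these the lower members were ADAM19 and MMP14, as with limma-voom. limma on log2(FPKM + 0.1) called 0 members, where it called 0.0369% of all genes higher and 0.00461% lower.

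**Figure D5:**
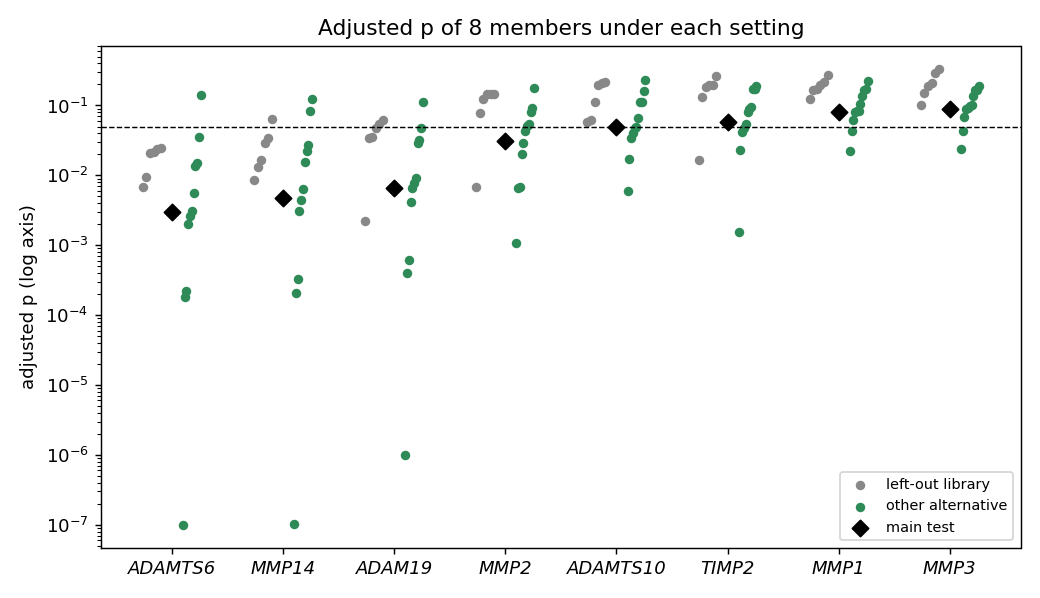
Adjusted p (log axis) of 8 members in the main test (black diamonds), with 1 library left out (grey) and under the other alternatives (green), with a dashed line at 0.05. ADAMTS6 stays below the line for every left-out library, whereas TIMP2, MMP1 and MMP3 start above it and cross it under some settings.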

How the data were processed

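Trizol-extracted total RNA went into Illumina TruSeq RNA libraries, per the labels' protocols. Bowtie 0.12.2 is named in the submitters' processing notes. The strand setting, counter, annotation and build were not given in the sources used here. The authors deposited read counts and FPKM values for each Ensembl gene, per the file headers. GENCODE v29 held 40903 of the 42307 identifiers, with an equal start or end (within 1 base) for 89.8% of them. It held all 62 members, with an equal start or end for 48 (77.4%). Coordinates are therefore read as GRCh38. The deposited counts had an excess of the value 4, at 1.97 to 2.29 times the mean of its neighbours, so floors are optimistic. No pair of libraries of a group agreed within sampling noise (chi-square per gene 11.7 to 23.0).

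The counts were compared, 3 against 3 libraries without covariates, by edgeR 4.0.16 under R 4.3.3 (filterByExpr, TMM, robust quasi-likelihood, two-sided, Benjamini-Hochberg over 21679 genes, threshold 0.05). The SE of a log2 fold change is its size over the square root of F. The deposited FPKM values served for levels and 1 alternative. GC content and length are those of the longest GENCODE v29 transcript. In simulated data of this comparison (20943 genes) 28% of genes changed 1.25-fold, 68% changed 1.5-fold, 88% changed 2-fold and 92% changed 3-fold were recovered, among genes of at least 1 CPM. The simulated libraries were drawn independently, with no trend on GC content and no outlying library, so recovery in the real data may differ. The 17 alternatives cover scaling, filters, DESeq2 1.42.0, limma 3.58.1, a replicate block, a correction for GC content and length, and leaving out each library. Named members are those with an unadjusted p under 0.05, the 15 highest in FPKM, the TIMPs, MMP2, MMP9, ADAM10 and ADAM17; named related genes passed, or had the smallest p of a list in which none passed. Members named in the role groups and the chromosome 11 cluster beyond these were chosen after their values were seen. The members, lists and rules were chosen with earlier results of these data known, among them the changes of ADAMTS6, ADAMTS10 and MMP14. MMP26, MMP27, ADAM2 and ADAM18 were not analysed here.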

Additional observations from a re-analysis of the deposited data

How the results depend on the processing

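The rise of ADAMTS6 was the sole call among the members in each alternative on the higher side except 3: the filter at 1 CPM and DESeq2 gave 3 higher members (ADAMTS6, MMP1 and MMP3), and limma on log2(FPKM + 0.1) gave 0. The number of lower members, 4 in the main test, was 2 with limma-voom, with the replicate block and with the GC content and length correction. It was 1 with both of the last together and 0 with limma on FPKM. With the block MMP14 and ADAM19 fell, where 55 of all genes rose and 65 fell (0.254% and 0.3%). With block and correction together 0.129% of all genes rose and 0.166% fell. With 1 library left out the number of lower members was 0 to 4, that of higher members 1 to 1, and that of related genes 0 to 10 lower and 0 to 2 higher. With limma on FPKM, STING1 had a log2 fold change of 0.61 and did not pass (adjusted p = 0.101), and that test called 8 genes higher and 1 lower over all genes. Without 1 library the estimate for STING1 was 0.53 to 0.67. The number of related genes that fell, 5 in the main test, was 1 with scaling to total counts, 9 with the filter at 1 CPM, 11 with DESeq2, 0 with limma-voom, limma on FPKM and the replicate block, 2 with the GC content and length correction and 0 with that correction and the block, and DESeq2 gave 1 higher related gene. The same replicate numbers correlated at 0.0551, 0.0231 and 0.0172 in their deviations, against −0.0400 to 0.0192 for other pairs, and the labels tie nothing to the numbers. HBA1 was near 0 in library 1 of both groups and high in libraries 2 and 3 of both, a likeness by number seen in the data and not in the design. Signs turned for genes near 0. ADAMTS4 was at 0.0280 with total-count scaling, 0.0164 with limma on FPKM, 0.0237 with the correction, 0.0232 with correction and block, and −0.0438 to 0.0378 without 1 library. TIMP1 was at 0.0297, 0.0181, 0.0543 and 0.0524 in the same settings and at −0.0708 to 0.0448 without 1 library, and ADAMTS12 was at −0.00836 to 0.105 without 1 library. Of 537 settings over 32 named genes 430 kept the direction and the side of the threshold, 79 lost a call, 13 gained one and 15 turned in sign. The 430 include genes without a call in the main test that stayed without one. Of 17 alternatives each, ADAMTS6 passed in 16, MMP14 and ADAM19 in 14, MMP2 in 7 and ADAMTS10 in 6. Among the related genes APP passed in 8, TSPAN15 and VCAN in 7, and BMP1 and FURIN in 6. The cause of these shifts was not tested.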
